A study of Mus musculus with 6 samples.

Results

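Chemokines are small secreted proteins, and their receptors are membrane proteins that direct the movement of cells. The members were all genes of the deposited table whose symbols name a chemokine (*Ccl*, *Cxcl*, *Cx3cl1*, *Xcl1*) or a chemokine receptor (*Ccr*, *Cxcr*, *Ackr*, *Cx3cr1*, *Xcr1*, *Ccrl2*). The symbol alone decided membership, although earlier results of these data were known when the members were chosen. The rule found 61 of 17854 genes, of which 37 were ligands and 24 were receptors. Ligands are grouped below by family name or by the receptor that they are best known to act on.

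By the paper's account, the RNA came from Tomato+ cells sorted from digested knee cartilage of male C57BL/6 mice. Tomato+ cells are those in which Cre driven by *Prrx1*, a gene of limb mesenchyme, had once switched on tdTomato. The label therefore marks descent from *Prrx1*-expressing cells and not a cell type. The 3 MSC-derived libraries (treatment Inject Prrx) held Tomato+ cells from repaired cartilage of mice with surgically induced knee osteoarthritis, whose joints had received *Prrx1*-lineage mesenchymal stromal cells (MSCs) of inguinal fat from *Prrx1-Cre; R26tdTomato* donors. The 3 endogenous libraries (treatment Native Prrx) held articular Tomato+ cells of *Prrx1-Cre; R26tdTomato* mice matched for age and sex, for which the sources used here name no surgery. Origin of the cells, surgery and injection therefore cannot be told apart, and the age at sampling was not given in the sources used here. Each library was taken to be a separate mouse, and if some were not, the p-values measure technical spread only.

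Most chemokine receptors signal through inhibitory G proteins, and leukocytes follow the gradients that they sense. Inflammatory chemokines are made on demand by activated macrophages, neutrophils and stromal cells, whereas homeostatic chemokines such as CXCL12 are made steadily by stromal and bone-lineage cells and hold blood cells in their niches. Most atypical receptors bind chemokines without G protein signaling, and some clear them. In osteoarthritic joints, chemokines are known for drawing monocytes and neutrophils into the synovium.

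Library totals ran from 22060628 to 24881796 expected counts (reads per gene as RSEM estimates them), and 3 counts, taken as the smallest level that can be shown, were 0.117 to 0.133 CPM (counts relative to library size) after scaling. This floor and all counting intervals cover counting error only. Endogenous replicate 1 stood apart, with 3449 genes at 0 counts against 1323 and 1375 in the other endogenous libraries, so values without it are given wherever it changed the call of a gene named here. The labels call both groups chondrocytes. All 11 chondrocyte markers found in the table were detected in both groups, but they summed to 440.7 to 453 TPM (a level scaled for transcript length and library size) in MSC-derived and to 24803 to 26628 TPM in endogenous libraries. All 10 leukocyte, 12 macrophage and 12 neutrophil markers were called higher in MSC-derived cells. Their sums were 5267 to 5300 against 440.3 to 491 TPM, 13915 to 14241 against 60.7 to 76.0 TPM, and 147722 to 156400 against 8271 to 11628 TPM. Of 7 stromal markers 6 were lower and 0 were higher, with sums of 1867 to 1911 against 9343 to 12204 TPM, and all 9 osteoblast markers were lower, with 729.5 to 761 against 60747 to 83917 TPM. No marker of these 6 lists was at 0 in all libraries of a group. Their part in the chemokine results was not tested, and in bulk RNA fewer cells of a type and less RNA per cell cannot be told apart. Below, MSC-derived cells and endogenous cells are names for the sorted libraries. Which cells in them made a transcript was not tested.

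The chemokine ligands of the MSC-derived libraries were led by *Ccl4*, *Ccl6* and *Cxcl2*, and those of the endogenous libraries by *Cxcl12*. Of the 37 ligands, 28 passed the filter on low counts, 12 were higher and 9 lower in the MSC-derived cells, and 7 were not called (edgeR's quasi-likelihood test, adjusted p at most 0.05 over 14289 genes). Among all genes tested 31.3% were called higher and 30.3% lower, 61.6% in all. The groups did not overlap for 13 ligands that were higher and 9 that were lower, against 38.2% and 34.1% of all genes (72.4% in either direction). The median log2 fold change (MSC-derived minus endogenous throughout) was 0.24 for the ligands tested and 0.046 for all genes tested. Summed over the 37 ligands, the level was 2407 ± 40.8 TPM in the MSC-derived cells and 7420 ± 627 TPM in the endogenous cells (SD, n = 3). *Cxcl12* made up 61.6% ± 0.832 of the endogenous sum and 4.51% ± 0.107 of the MSC-derived sum (SD, n = 3). The 5 inflammatory ligands of the MIP-1 and RANTES group (*Ccl3*, *Ccl4*, *Ccl5*, *Ccl6* and *Ccl9*) made up 54.7% ± 0.151 of the MSC-derived sum and 1.78% ± 0.157 of the endogenous sum (SD, n = 3).

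**Figure D1:**
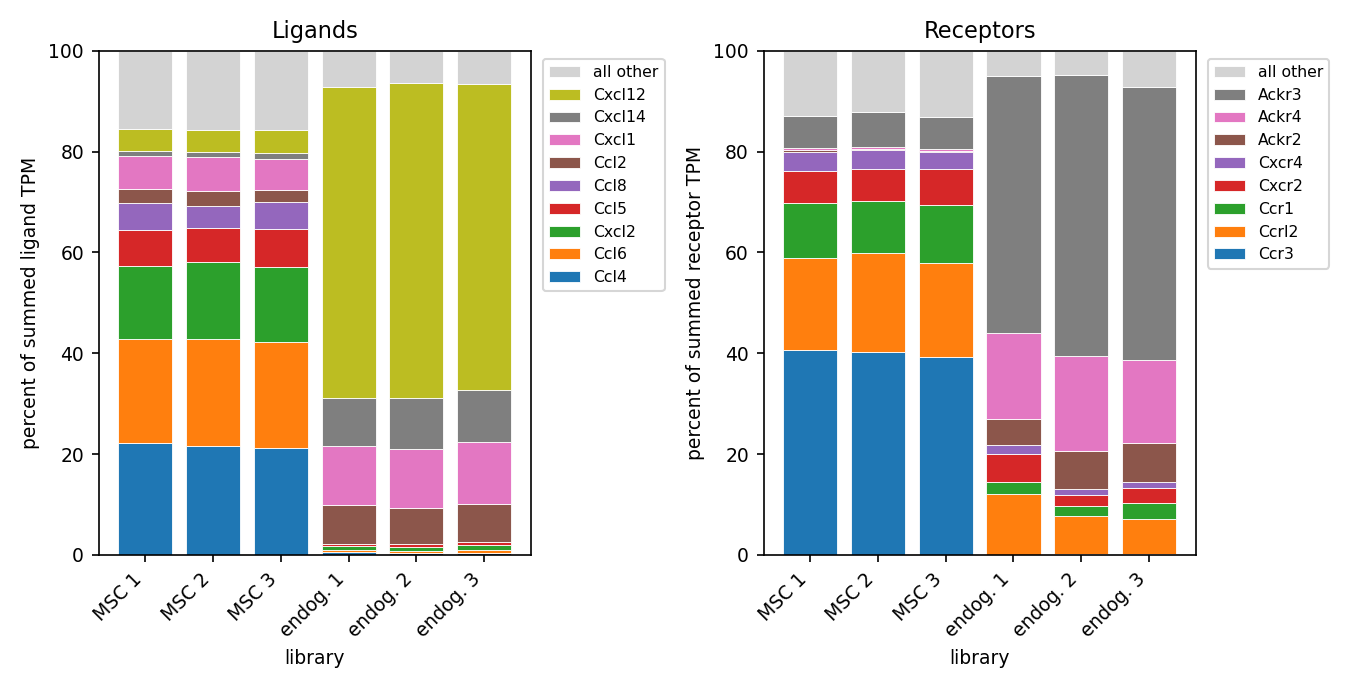
Share of each named gene in the summed TPM of all 37 ligands (left) and all 24 receptors (right), in percent, for each of the 6 libraries (MSC, MSC-derived; endog., endogenous). *Cxcl12* and *Ackr3* fill most of the endogenous bars, with means of 61.6% and 53.6%, and *Ccl4*, *Ccl6* and *Ccr3* lead the MSC-derived bars, with means of 21.7%, 21.0% and 40.1%.

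All 5 inflammatory ligands of the MIP-1 and RANTES group, which attract monocytes and other leukocytes, were higher in the MSC-derived cells. *Ccl4* (NCBI Gene 20303), which encodes MIP-1β, had 541, 521 and 502 TPM in the MSC-derived libraries and 43.1, 29.1 and 32.5 TPM in the endogenous ones. It was the highest ligand of the MSC-derived cells and the 11th of the endogenous cells, and its log2 fold change was 4.34 (standard error, SE, 0.12, adjusted p = 1.47e-07). *Ccl6* (20305), a CC chemokine of myeloid cells, had 508, 509 and 496 TPM against 34.2, 30.2 and 35.7 TPM. The replicates of each group lay close together, and the log2 fold change was 4.36 (SE 0.09, adjusted p = 6.74e-08). *Ccl5* (20304), which encodes RANTES, a chemokine of T cells and macrophages, had 176, 162 and 179.8 TPM against 32.3, 37.9 and 40.6 TPM, a log2 fold change of 2.64 (SE 0.16, adjusted p = 5.29e-06). *Ccl3*, which encodes MIP-1α, and *Ccl9* also rose, with log2 fold changes of 2.95 and 1.79 (SEs 0.18 and 0.18). In the genome these 5 genes stand side by side, with no other coding gene among them in RefSeq (GRCm38.p6).

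The monocyte attractants with MCP names split, with 2 higher and 2 lower. *Ccl2* (20296), which encodes MCP-1, had 67.6, 71.2 and 59.8 TPM in the MSC-derived libraries and 631, 500.0 and 529 TPM in the endogenous ones. It fell by 2.62 on the log2 scale (SE 0.10, adjusted p = 4.48e-07). *Ccl7* (20306), which encodes MCP-3, had 105, 97.1 and 97.4 TPM against 282, 162 and 176 TPM, with endogenous replicate 1 highest. The log2 fold change was -0.60 (SE 0.16, adjusted p = 0.0151), and the call was lost without MSC-derived replicate 2 (adjusted p = 0.0627) or 3 (adjusted p = 0.0595) and in limma with no filter (adjusted p = 0.0567). *Ccl8* (20307), which encodes MCP-2, went the other way, with 131, 107.5 and 123 TPM against 0, 3.16 and 3.65 TPM. The groups were far apart, with a log2 fold change of 6.08 (SE 0.62, adjusted p = 9.59e-05) that was 5.45 without endogenous replicate 1, the library at 0. *Ccl12*, which encodes MCP-5, had 193 to 199 counts in each MSC-derived and 4 to 13 in each endogenous library. It rose by 4.64 on the log2 scale (SE 0.48, adjusted p = 0.000111), or by 5.30 without endogenous replicate 1. *Ccl2*, *Ccl7*, *Ccl11*, *Ccl12*, *Ccl8* and *Ccl1* are direct neighbours in the genome, so the directions divided within this row of genes.

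The neutrophil attractants of CXCR2 divided as well. *Cxcl2* (20310), which encodes MIP-2, had 352, 366 and 354 TPM in the MSC-derived libraries and 71.7, 57.6 and 72.2 TPM in the endogenous ones. It rose by 2.85 on the log2 scale (SE 0.10, adjusted p = 3.87e-07). *Cxcl1* (14825), which encodes KC, had 164, 161 and 145 TPM against 946, 809 and 887 TPM. It was thus the second highest ligand of the endogenous cells, and its log2 fold change was -2.05 (SE 0.08, adjusted p = 4.80e-07). *Cxcl3*, a close relative of both, had 56.1 to 74.1 counts per MSC-derived library and 1, 12.02 and 1.90 in the endogenous ones. Its log2 fold change was 3.55 (SE 0.85, adjusted p = 0.00804), and it was 5.20 without endogenous replicate 2, the highest of its group. *Cxcl5*, which stromal and epithelial cells make, had 28 to 62 counts in MSC-derived and 154, 25 and 41 in endogenous libraries. The groups overlapped (log2 fold change -0.89, SE 0.74, adjusted p = 0.325), and the sign turned without endogenous replicate 1 (0.23). *Cxcl15* had at most 1 count in any library and was not tested.

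**Figure D2:**
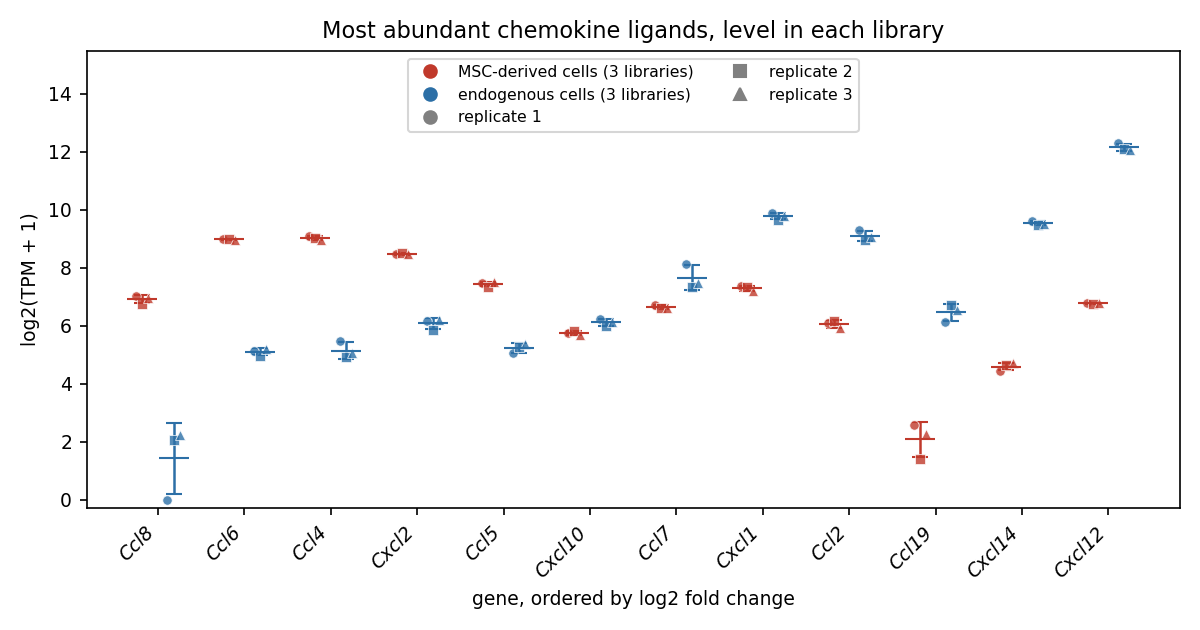
Level of the 12 ligands that were among the 8 highest of either group, as log2(TPM + 1), in each library, with horizontal lines at the group mean and bars of 1 SD over 3 libraries. *Ccl8* to *Ccl5* lie higher in the MSC-derived cells, and *Cxcl1* to *Cxcl12* lie lower, while *Cxcl10* and *Ccl7* differ least.

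*Cxcl1*, *Cxcl2* and *Cxcl3* are shown here with the 250 bases before their transcription starts (RefSeq, GRCm38.p6, plus strand), because these neighbouring genes moved in different directions. Capitals mark matches to the NF-κB consensus, the site bound by a factor well known at chemokine promoters, searched on both strands with overlapping matches merged.
Cxcl1, chr5:90890995-90891244: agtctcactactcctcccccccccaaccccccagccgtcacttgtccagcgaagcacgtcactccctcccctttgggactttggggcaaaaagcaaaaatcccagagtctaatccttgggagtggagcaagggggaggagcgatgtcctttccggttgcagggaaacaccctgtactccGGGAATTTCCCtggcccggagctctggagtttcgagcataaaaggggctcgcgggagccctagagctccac
Cxcl2, chr5:90903649-90903898: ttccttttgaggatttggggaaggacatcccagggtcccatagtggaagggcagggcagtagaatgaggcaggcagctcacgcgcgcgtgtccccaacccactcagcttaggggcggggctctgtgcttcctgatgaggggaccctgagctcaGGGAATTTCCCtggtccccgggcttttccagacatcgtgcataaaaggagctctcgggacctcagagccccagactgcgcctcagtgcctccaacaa
Cxcl3, chr5:90785851-90786100: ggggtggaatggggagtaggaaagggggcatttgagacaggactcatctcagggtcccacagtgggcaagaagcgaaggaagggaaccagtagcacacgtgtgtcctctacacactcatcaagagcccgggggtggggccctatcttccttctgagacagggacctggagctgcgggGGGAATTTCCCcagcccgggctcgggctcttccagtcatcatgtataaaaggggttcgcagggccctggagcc
The marked letters, GGGAATTTCCC, begin 71 bases before the start of *Cxcl1*, 97 before that of *Cxcl2* and 73 before that of *Cxcl3*. The same letters stand in 14 of 32851 windows of this length (0.0426%). Any match to the consensus was found in 7.25% of these windows, in 7 of the 28 ligands with a RefSeq window, and in 5 of the 20 receptors with one. The match thus stands before *Cxcl1*, which fell, and before *Cxcl2* and *Cxcl3*, which rose, and a match is a description of the letters only.

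The homeostatic ligand *Cxcl12* (20315), which encodes SDF-1 and retains blood progenitors in marrow, was the most abundant ligand of the endogenous cells. It had 5013, 4367 and 4327 TPM there and 109.8, 106 and 109.5 TPM in the MSC-derived libraries. Its log2 fold change of -5.12 (SE 0.06, adjusted p = 1.97e-08) was the largest decrease among the members tested and came to 34.9-fold. *Cxcl14* (57266), a chemokine of skin and stroma, had 20.8, 23.9 and 25.1 TPM in MSC-derived and 779, 711 and 727 TPM in endogenous libraries. It fell by 4.54 on the log2 scale (SE 0.10, adjusted p = 6.88e-08). *Cx3cl1*, which encodes the membrane-bound fractalkine, had 74 to 127 counts in each MSC-derived and 2454 to 2506 in each endogenous library. It fell by 4.65 (SE 0.18, adjusted p = 5.25e-07), whereas *Cxcl16*, the other membrane-bound ligand, rose by 2.45 (SE 0.26, adjusted p = 0.000117). Levels of *Cxcl12* and *Cxcl14* in the 3 libraries of a group lay far closer to each other than to those of the other group.

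The CCR7 ligands, which guide T cells and dendritic cells in lymphoid tissue, differed among themselves. *Ccl19* (24047) had 4.97, 1.67 and 3.79 TPM in the MSC-derived libraries and 69.9, 103 and 92.4 TPM in the endogenous ones, a log2 fold change of -4.26 (SE 0.41, adjusted p = 6.82e-05). *Ccl21a* had 107 to 117 counts in MSC-derived and 0 in endogenous libraries. Only if reads are taken as RSEM assigned them was it at least 34.8-fold higher against the floor of 3 counts per library (adjusted p = 0.000159). *Ccl21a*, *Ccl21b* and *Ccl21d* are near-identical copies, and how RSEM shared reads among them is uncertain, as is each value alone. Summed, they had 141, 133 and 139.6 counts in the MSC-derived libraries and 11, 26.2 and 16.1 in the endogenous ones, and *Ccl21b* alone was not called (log2 fold change 0.44, adjusted p = 0.513). *Cxcl13*, the B cell attractant, had 0, 9 and 7 counts in MSC-derived and 199, 26 and 42 in endogenous libraries, with endogenous replicate 1 far above the rest. The difference on the log2 scale was -4.09 (SE 1.19, adjusted p = 0.0194). It was -2.74 without endogenous replicate 1 and -3.50 without MSC-derived replicate 1, and without MSC-derived replicate 2 or 3 the call was lost (adjusted p = 0.0540 and 0.0658).

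Neither interferon-induced ligand of CXCR3 was higher in the MSC-derived cells. *Cxcl10* (15945) had 52.5, 55.0 and 49.9 TPM there and 75.0, 63.0 and 68.8 TPM in the endogenous libraries. These TPM ranges did not overlap, but the scaled counts did (log2 fold change 0.046, SE 0.10, adjusted p = 0.701). Over the 14226 genes tested that had a TPM above 0 in both groups, the median log2 ratio of mean TPM was -0.40, so at the median TPM placed genes lower in the MSC-derived cells than the scaled counts did. *Cxcl9* had 144 to 163 counts against 538, 251 and 258, and endogenous replicate 1 was highest. It fell by 1.27 on the log2 scale (SE 0.34, adjusted p = 0.0130), a call lost without MSC-derived replicate 1 (adjusted p = 0.0537) or 2 (adjusted p = 0.0532).

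The eotaxins, which attract eosinophils through CCR3, were low. *Ccl24* had 34, 32 and 19 counts in MSC-derived and 0, 0 and 1 in endogenous libraries, a ratio of 80.8 with an exact 95% counting interval of 14.1 to 3228 (adjusted p = 0.00121). The only endogenous count was in replicate 3. *Ccl11* had 86, 63 and 44 counts against 0, 21 and 20. The groups did not overlap, but the difference was not called (log2 fold change 2.15, SE 1.00, adjusted p = 0.101) except without endogenous replicate 1 (log2 fold change 1.52, adjusted p = 0.00195) and on the FPKM scale (adjusted p = 0.00507 to 0.0354). Of the other homeostatic ligands, *Ccl25*, a thymus and gut chemokine, and the skin chemokines *Ccl27a* and *Ccl27b* had log2 fold changes of 0.046, -0.13 and -0.50 and were not called (adjusted p = 0.940, 0.827 and 0.470). *Ccl27a* and *Ccl27b* are also near-identical copies, which together had 47.7 to 85.3 and 63.4 to 80.6 counts. *Ccl28* was not tested, with 0, 0 and 1 counts in MSC-derived and 93, 9 and 3 in endogenous libraries. *Xcl1* had 10, 15 and 31 counts against 0, 9 and 4, and was not tested either. Without endogenous replicate 1, *Xcl1* passed the filter but was not called (log2 fold change 1.40, adjusted p = 0.0759). *Ccl1*, *Ccl17*, *Ccl20*, *Ccl21d*, *Ccl22* and *Cxcl17* had fewer than 10 counts in every library and were below what this depth can compare.

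The receptors were mostly higher in the MSC-derived cells, and the 3 that were lower were atypical receptors. Of 24 receptors, 19 were tested, 13 were higher and 3 were lower, and 3 were not called, beside the 31.3% and 30.3% of all genes given above. The groups did not overlap for any of the 19 tested, 16 of them higher and 3 lower in the MSC-derived cells, against 38.2% and 34.1% of all genes (72.4% in either direction). The median log2 fold change was 2.39. Without endogenous replicate 1, 20 receptors passed the filter, of which 17 were higher and 3 lower. In that fit 37.8% of all 14728 genes tested were called higher and 38.6% lower, so calls were also more frequent among all genes. Summed over all 24, receptors had 580.5 ± 11.3 TPM in the MSC-derived cells and 289.8 ± 14.8 TPM in the endogenous cells (SD, n = 3), so that the receptor sum was higher where the ligand sum was lower. Receptors of monocytes, macrophages and granulocytes held 63.5% ± 0.552 of the MSC-derived sum and 7.86% ± 3.28 of the endogenous sum, and atypical receptors held 28.2% ± 0.754 and 89.0% ± 2.58 (SD, n = 3). Among the atypical receptors, *Ccrl2* alone held 18.8% ± 0.643 of the MSC-derived sum and 8.93% ± 2.82 of the endogenous sum (SD, n = 3).

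**Figure D3:**
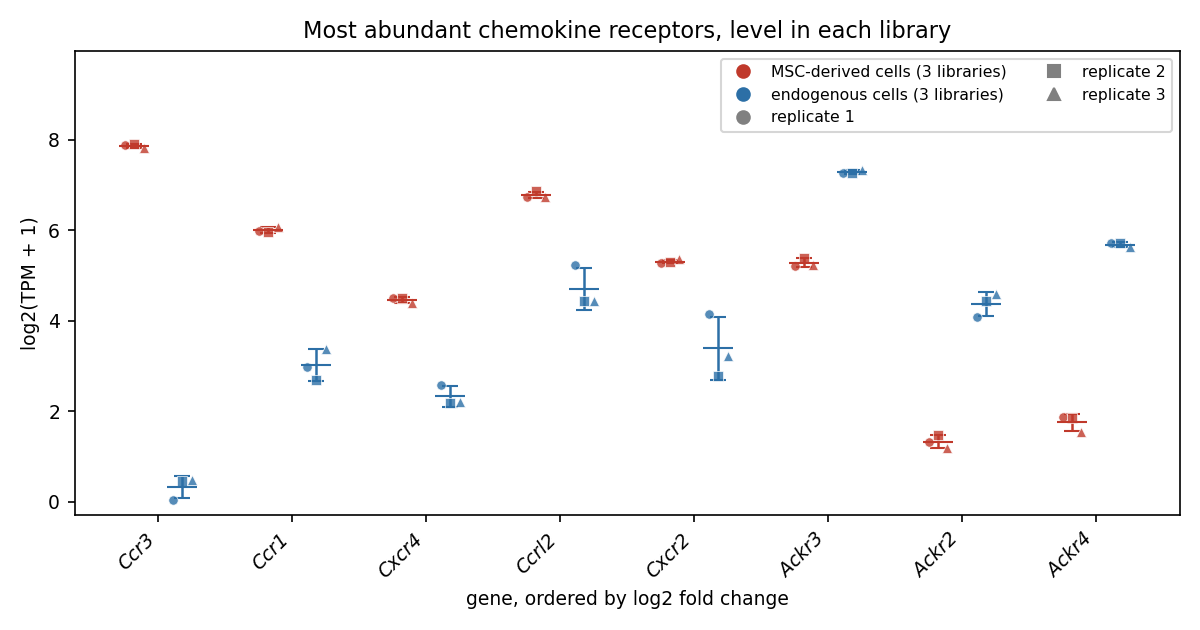
Level of the 8 receptors that were among the 6 highest of either group, as log2(TPM + 1), in each library, with horizontal lines at the group mean and bars of 1 SD over 3 libraries. *Ccr3*, *Ccr1*, *Cxcr4*, *Ccrl2* and *Cxcr2* lie higher in the MSC-derived cells, and *Ackr3*, *Ackr2* and *Ackr4* lie lower.

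All 7 tested receptors of monocytes, macrophages and granulocytes were higher. *Ccr3* (12771), the eotaxin receptor of eosinophils, had 235, 239 and 224 TPM in the MSC-derived libraries and 0.03, 0.38 and 0.39 TPM in the endogenous ones, from 12434 to 14414 and 1 to 17 counts. Its log2 fold change of 10.14 (SE 0.37, adjusted p = 4.41e-07) was the largest among the receptors. All 8 eosinophil markers found in the table were called higher, by 2.40 to 4.87 on the log2 scale. Their sums were 2136 to 2184 TPM against 191 to 254 TPM, and no marker was at 0 in all libraries of a group. *Prg2*, *Ear1*, *Ear2* and *Ear6* made up most of the MSC-derived sum. *Siglecf* and *Il5ra* had means of 3.54 and 0.407 TPM in MSC-derived cells and 0.407 and 0.0867 TPM in endogenous cells. Of 5 basophil and mast cell markers tested 1 was higher and 0 were lower (42.3 to 45.5 against 21.5 to 25.9 TPM), and *Tpsb2* and *Cma1* were at 0 in all endogenous libraries. The part of these cells in the *Ccr3* result was not tested. *Ccr1* (12768), a receptor of CCL3 and CCL5 on monocytes and neutrophils, had 62.3, 61.1 and 66.2 TPM against 6.93, 5.47 and 9.45 TPM, a log2 fold change of 3.55 (SE 0.21, adjusted p = 4.70e-06). *Cxcr2* (12765), the neutrophil receptor of CXCL1 and CXCL2, had 37.7, 38.5 and 40.0 TPM against 16.9, 5.90 and 8.30 TPM, with endogenous replicate 1 highest (log2 fold change 2.39, SE 0.30, adjusted p = 0.000340).

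The other receptors of this group had lower TPM. *Ccr2*, the MCP-1 receptor of monocytes, had 972 to 1149 counts per MSC-derived library and 384, 74 and 65 in the endogenous ones. Its log2 fold change was 2.53 (SE 0.65, adjusted p = 0.0116) and was 3.82 without endogenous replicate 1, which had most of the endogenous counts. *Cx3cr1*, the fractalkine receptor of monocytes and macrophages, had 508 to 517 counts against 4, 19 and 45. It rose by 4.44 on the log2 scale (SE 0.60, adjusted p = 0.000479), or by 5.37 without endogenous replicate 3. *Ccr1l1*, a relative of *Ccr1*, had 153 to 165 counts against a total of 1, a ratio of 457 with an exact 95% counting interval of 81.7 to 18093 (adjusted p = 2.86e-05), and that count was in endogenous replicate 2. *Cxcr1* had 5 to 11 counts against 0 and was not tested. *Ccr9*, *Cxcr6*, *Xcr1*, *Ccr1*, *Ccr1l1*, *Ccr3* and *Ccr2* lie together in the genome. Of these 7, 6 were called higher, beside 13 of all 19 receptors tested and 31.3% of all genes tested.

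*Cxcr4* (12767), the signaling receptor of CXCL12 on blood cells, moved against its ligand. It had 21.7, 21.5 and 19.9 TPM in the MSC-derived libraries and 5.02, 3.56 and 3.59 TPM in the endogenous ones, a log2 fold change of 2.80 (SE 0.16, adjusted p = 3.55e-06). *Ackr3* (12778), the atypical receptor that takes up CXCL12, was the highest receptor of the endogenous cells and fell together with the ligand. It had 36.3, 41.1 and 36.8 TPM against 153, 152 and 159.9 TPM, a log2 fold change of -1.60 (SE 0.10, adjusted p = 5.82e-06). *Cxcl12* and *Cxcr4* were opposed, and so were *Cx3cl1* and *Cx3cr1*, *Ccl2* and *Ccr2*, *Cxcl1* and *Cxcr2*, and *Cxcl9* and *Cxcr3*. No tested receptor outside the atypical ones was lower, so a ligand of theirs that fell could not fall together with one. *Ccl19* and *Cxcl13* fell too, but their receptors *Ccr7* and *Cxcr5* were not called. *Ccl12* and *Cxcl2*, other ligands of CCR2 and CXCR2, rose. *Ccr1* was higher in the same libraries as *Ccl3*, *Ccl5*, *Ccl6* and *Ccl9*, which are known to act on it.

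The remaining atypical receptors also divided. *Ackr4* (252837), a scavenger of CCL19 and CCL21, had 2.65, 2.61 and 1.91 TPM in the MSC-derived libraries and 51.5, 51.5 and 48.2 TPM in the endogenous ones. It fell by 3.94 on the log2 scale (SE 0.16, adjusted p = 7.07e-07). *Ackr2* (59289), a scavenger of inflammatory CC chemokines, had 1.51, 1.78 and 1.26 TPM against 15.9, 20.5 and 23.1 TPM, and fell by 3.27 (SE 0.25, adjusted p = 1.86e-05). *Ccrl2* (54199), which presents chemerin on myeloid cells, had 106, 116 and 106 TPM against 36.7, 20.7 and 20.8 TPM. It was among the 3 highest receptors of both groups and rose by 2.52 (SE 0.18, adjusted p = 1.38e-05). *Ackr1*, the Duffy receptor of erythroid and venous endothelial cells, had 206 to 266 counts against 37.9 to 144. Its call (log2 fold change 1.43, SE 0.44, adjusted p = 0.0247) was lost when any MSC-derived replicate (adjusted p = 0.0536 to 0.0768) or endogenous replicate 2 (adjusted p = 0.0933) was left out, and the value was 2.02 without endogenous replicate 3. All 8 erythroid markers were higher in the MSC-derived libraries, with sums of 31254 to 32395 TPM against 7267 to 9983 TPM, and of 8 endothelial markers 5 were higher and 0 lower, with sums of 32.8 to 35.9 against 10.1 to 20.7 TPM. In neither list was a marker at 0 in all libraries of a group, and their part in the *Ackr1* result was not tested.

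**Figure D4:**
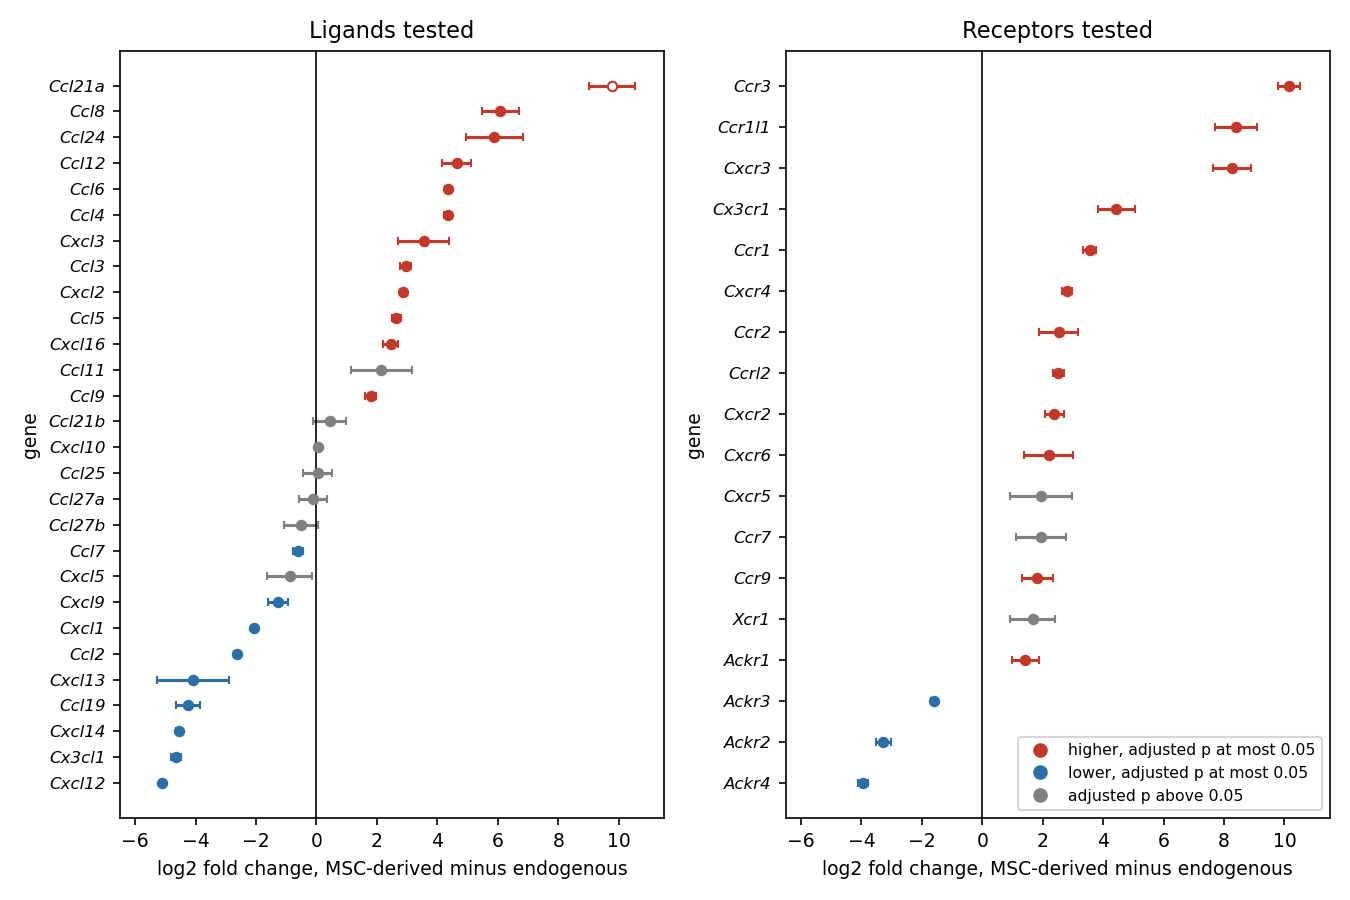
Log2 fold change (MSC-derived minus endogenous) with its standard error for the 28 ligands and 18 of the receptors tested, colored by call, with *Ccl21a* open because its endogenous counts were 0 and its fitted value is no bound. Values run from -5.12 for *Cxcl12* to 10.14 for *Ccr3*, and the 3 receptors below 0 are *Ackr3*, *Ackr2* and *Ackr4*.

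Receptors of lymphocytes and dendritic cells were at low levels. *Cxcr3*, the T cell receptor of CXCL9 and CXCL10, was the clearest, with 334 to 390 counts in each MSC-derived library and 0, 0 and 3 in the endogenous ones. The ratio was 343 with an exact 95% counting interval of 117 to 1665 (adjusted p = 1.89e-05). *Ccr9*, a gut-homing receptor, had 50, 130 and 53 counts against 24, 21 and 17 (log2 fold change 1.83, SE 0.53, adjusted p = 0.0184), and its call was lost without MSC-derived replicate 2 (adjusted p = 0.121), the highest library, or endogenous replicate 2 or 3 (adjusted p = 0.0552 and 0.0628). *Cxcr6*, the receptor of CXCL16, had 36 to 60 counts against 1, 11 and 16 (log2 fold change 2.19, SE 0.80, adjusted p = 0.0460). Its call held without endogenous replicate 1 but was lost without each of the other 5 libraries (adjusted p = 0.0501 to 0.161), under all 4 other scalings (adjusted p = 0.0507 to 0.0580) and with no filter (adjusted p = 0.0610). Without endogenous replicate 3 the value was 2.78. Of the T and NK cell markers, 9 of 11 tested were higher and 0 lower, and the 12 found in the table summed to 216.0 to 225 TPM against 33.6 to 34.7 TPM. *Nkg7* and *Cd4* made up most of the MSC-derived sum, and the other 10 summed to 18.6 to 22.5 against 5.71 to 12.9 TPM. *Cd3d*, *Cd3e* and *Cd3g*, which define T cells, had means of 3.13, 2.79 and 2.54 TPM in MSC-derived cells and 0.913, 0.410 and 0.140 TPM in endogenous cells.

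*Ccr7*, *Cxcr5* and *Xcr1* were higher in every MSC-derived library than in any endogenous one, but were not called. *Ccr7*, the receptor of CCL19 and CCL21, had 284 to 310 counts against 4, 81 and 136 (log2 fold change 1.95, SE 0.83, adjusted p = 0.0758). *Cxcr5*, the B cell receptor of CXCL13, had 98, 45 and 77 counts against 0, 25 and 29 (log2 fold change 1.95, SE 1.03, adjusted p = 0.138). *Xcr1*, a receptor of cross-presenting dendritic cells, had 28.9, 22.7 and 13.9 counts against 4.81, 12.3 and 2.04 (log2 fold change 1.68, SE 0.75, adjusted p = 0.0876). Without endogenous replicate 1, the library with the fewest *Ccr7* and *Cxcr5* counts, all of these passed the threshold (adjusted p = 2.83e-06, 0.00456 and 0.0496), and the log2 fold changes of *Ccr7* and *Cxcr5* were 1.33 and 1.32. *Ccr7* also passed without endogenous replicate 3 (adjusted p = 0.0499) and *Xcr1* without endogenous replicate 2 (adjusted p = 0.0416). On the FPKM scale *Ccr7* and *Cxcr5* passed in all 3 limma fits (adjusted p = 0.00924 to 0.0407 and 0.0105 to 0.0363) and *Xcr1* in 2 of them (adjusted p = 0.0278 and 0.0378), and *Ccr7* passed in DESeq2 (adjusted p = 0.0397). Of 8 B cell markers, 6 were higher and 0 lower (277 to 296 against 29.8 to 39.5 TPM), and of 7 dendritic cell markers 4 were higher and 1, *Zbtb46*, was lower (35.8 to 41.3 against 30.1 to 32.2 TPM). *Ccr4*, *Ccr6*, *Ccr8* and *Ccr10* had at most 17 counts in any library and were not tested. Of these *Ccr10*, with 16, 10 and 4 counts against 0, 1 and 3, passed the filter without endogenous replicate 1 and was then called higher (log2 fold change 2.13, adjusted p = 0.0459).

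Genes of chemokine signaling that are no members were taken from a list of 56, all of which were tested. Of these, 38 were higher and 12 lower in the MSC-derived cells, beside 31.3% and 30.3% of all genes, and the median log2 fold change was 1.37. Among the largest increases were those of *Rgs1*, a brake on G protein signaling in leukocytes, and of *Fgr*, a Src-family kinase of myeloid cells, with log2 fold changes of 6.74 and 5.24 (SEs 0.44 and 0.24). *Rgs1* was at 7.502 without endogenous replicate 3. The largest decreases were those of *Sdc4* and *Sdc1*, syndecans whose heparan sulfate chains hold chemokines at the cell surface, and of *Rgs16*, another brake on G protein signaling, with log2 fold changes of -3.31, -2.15 and -2.07 (SEs 0.07, 0.10 and 0.41). *Pf4* and *Ppbp* are chemokines of platelets whose symbols the rule does not cover. *Pf4*, which encodes CXCL4, had 167, 169 and 161 TPM against 14.7, 27.6 and 22.1 TPM (log2 fold change 3.36, SE 0.25, adjusted p = 1.86e-05). *Ppbp*, which encodes CXCL7, had 19, 41 and 30 counts against 0, 85 and 103, and the groups overlapped (log2 fold change -1.11, SE 1.22, adjusted p = 0.455). Without endogenous replicate 1, the library at 0, *Ppbp* was called lower (log2 fold change -1.75, adjusted p = 0.000154). Leaving out that library gave 40 signaling genes higher and 13 lower, and the calls gained were those of *Ppbp*, *Rhoa* and *Rock1*, the last 2 of which were named after their values were seen. The log2 fold change of *Rhoa*, a GTPase of cell movement, was 0.14 (adjusted p = 0.255) with the library and 0.21 (adjusted p = 6.71e-05) without it. For *Rock1*, a kinase that RHOA activates, it was -0.017 (adjusted p = 0.940) and 0.18 (adjusted p = 0.00870). Of 8 markers of megakaryocytes and platelets, which include both genes, 1 was higher and 2, *Gp1ba* and *Gp1bb*, were lower. Their sum was 170.4 to 180 against 34.7 to 57.8 TPM with *Pf4*, and 9.07 to 10.8 against 20 to 30.3 TPM over the other 7, so *Pf4* itself set the direction of the sum.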

How the data were processed

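For each gene of the bulk libraries the authors ran RSEM and deposited expected counts, TPM and FPKM for every library, a scaled signal, and group averages. The submitters' processing notes name mm9, Bowtie2 2.2.5 and RSEM 1.2.12, while the paper names other versions, SOAPnuke and HISAT2 and no build. The 18 columns of expected counts, TPM and FPKM of single samples were used. The signal and the 8 averages were not.

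Expected counts were rounded to whole numbers (20.6% of values changed). They were scaled by TMM, filtered by filterByExpr and compared over 14289 genes with glmQLFTest (edgeR 4.0.16, R 4.3.3), adjusted over all genes by Benjamini-Hochberg. A standard error is the log2 fold change divided by the root of F. Gene levels are TPM with SD over 3 libraries. The members, role groups, signaling list and marker lists were chosen with earlier results of these data known. Full values were given for the 8 ligands and 6 receptors with the highest mean TPM in either group, and of the signaling genes the 3 largest changes in each direction were named, except that some genes counted in the totals are not reported here by name. The fit was tested on simulated counts for direction, size and false calls, after a first limit on recovery was not met. Promoters came from RefSeq and matched 48 of the 61 members, and neighbours were genes with at most 2 other coding genes between them. Alternatives were DESeq2 1.42.0, limma 3.58.1 on log2 FPKM, 4 other scalings, other filters, a robust fit, a replicate block, a threshold of 0.001 and each library left out. Intervals are exact at 95%. Figures used matplotlib 3.10.9. Each library counted as 1 replicate. Libraries of a group differed by more than counting noise, which cannot show that they came from separate mice.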

Additional observations from a re-analysis of the deposited data

How the results depend on the processing

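The direction and call of 40 of 55 genes held under all 18 other fits that tested them. Receptors lower stayed at 3 in each, while ligands higher ran from 11 to 13, ligands lower from 6 to 10, and receptors higher from 10 to 18. Calls among all genes moved too, from 8801 of 14289 tested in the main fit. They ran from 7440 of 14748 without MSC-derived replicate 3 to 11249 of 14728 without endogenous replicate 1. A threshold of 0.001 left 10 and 6 ligands, 9 and 3 receptors, and 32 signaling genes higher, and moved the lower signaling genes from 12 to 5. The share of all genes called at 0.001 was not computed. Uncalled genes whose sign turned were *Ccl25* (-0.030 with upper quartile scaling, -0.29 to 0.50 with a library left out), *Cxcl10* (-0.044 and -0.017 to 0.083 likewise), *Ccl27a* (-0.50 to 0.095 with a library left out), *Cxcl5* (-1.31 to 0.23 with a library left out) and *Ppbp* (0.24 in limma on log2(FPKM + 0.1)), and the cause was not tested. FPKM moved the median of all genes by 0.13 to 0.14.

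Same-numbered libraries share only a number (correlation of their deviations 0.00 to 0.02). With the replicate number as a block, 8023 of 14289 genes were called in either direction, against 8801 in the main fit. The block gave 12 ligands higher and 8 lower, 11 receptors higher and 3 lower, and 38 and 11 signaling genes. *Ccr9*, *Cxcl13* and *Cxcr6* lost their calls (adjusted p = 0.0568, 0.0961 and 0.0978).

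Depth limits the members with fewer than 10 counts. Among the members too low for the main test, *Cxcr1* was called higher and *Ccl28* lower with no filter (adjusted p = 0.0202 and 0.0162) and in DESeq2 (adjusted p = 0.0193 and 0.000880).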
